A study of Arabidopsis thaliana with 18 samples.

Results

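In developing Arabidopsis seeds, 103 of 22746 probe sets had an accession difference that changed sign between the first and the last stage measured. They were chosen from group means of 3 arrays. C24 minus Col-0 had to be 0.4 or more on the log2 scale at 8-9 days after flower opening and -0.4 or lower at 12-13 days, or the other way round. The first direction, C24 higher early and lower late, held 72 probe sets and is called early-high. The second, C24 lower early and higher late, held 31 and is called late-high. Because these differences chose the members, the values at both ends are given as a description without a test.

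The tissue was seeds dissected from siliques, the seed pods, of unmodified plants of the natural accession C24 and of Col-0, the accession of the reference genome. All plants grew in long days, and neither accession received a treatment. Seeds were taken at 8-9, 10-11 and 12-13 days (d), with 3 pools per accession and stage, or 18 Affymetrix arrays in 6 groups. Each pool held seeds of 48 siliques, 8 from each of 6 plants, and the labels do not tell which plants went into which pool. Replicates of a group may therefore share plants, and p-values reflect only how much pools varied. The series set the accessions side by side at equal age, and the stages within each accession. Signals are log2 values after robust multi-array averaging (RMA), which places all arrays on nearly 1 distribution.

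During this period a seed passes from growth to maturation. Cell division and the making of seed coat tannins give way to storage protein, oil and protective protein synthesis. A seed sample mixes embryo, endosperm and seed coat, so a difference in transcript level can come from the level per cell or from the share of a tissue. Fewer cells of a type and less RNA per cell cannot be told apart here. Whether sequence differences between the accessions changed the signal of a probe set was not tested.

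Array medians lay between 5.84 and 5.96 and arrays of a group correlated with r of 0.993 to 0.997 over all probe sets. The source name field of all 18 samples gives the other accession than the titles; titles were used, and if the source names were right the signs of all accession differences would turn and the directions would exchange names. Signal of the actin 3' control minus its 5' control, a measure of RNA integrity and labelling, averaged 0.85 in C24 and 1.84 in Col-0 at 8-9 d, 0.43 in C24 and 1.29 in Col-0 at 10-11 d, and -0.28 in C24 and 0.93 in Col-0 at 12-13 d. The ubiquitin control had 0.94 in C24 and 0.88 in Col-0 at 8-9 d, and 0.77 in C24 and 0.44 in Col-0 at 12-13 d. The GAPDH control had 0.94 in C24 and 0.89 in Col-0 at 8-9 d, and 1.19 in C24 and 1.77 in Col-0 at 12-13 d. The part of these differences in the results was not tested.

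The mean signal of the members over all arrays had a median of 7.55 in early-high members (range 4.64 to 10.6) and 7.05 in late-high members (5.12 to 9.23), against 5.93 over all probe sets. The reversal, taken as the difference at 8-9 d minus that at 12-13 d, had a median size of 1.31 in early-high members (0.875 to 4.25) and 1.25 in late-high members (0.902 to 3.00). It was 2 or more in 13 early-high and 8 late-high members. Of the early-high members 35 are listed with 1 gene, 3 with several and 34 are not in the gene table used; the late-high members comprise 15, 1 and 15. Names are given only for probe sets with 1 gene.

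**Figure D1:**
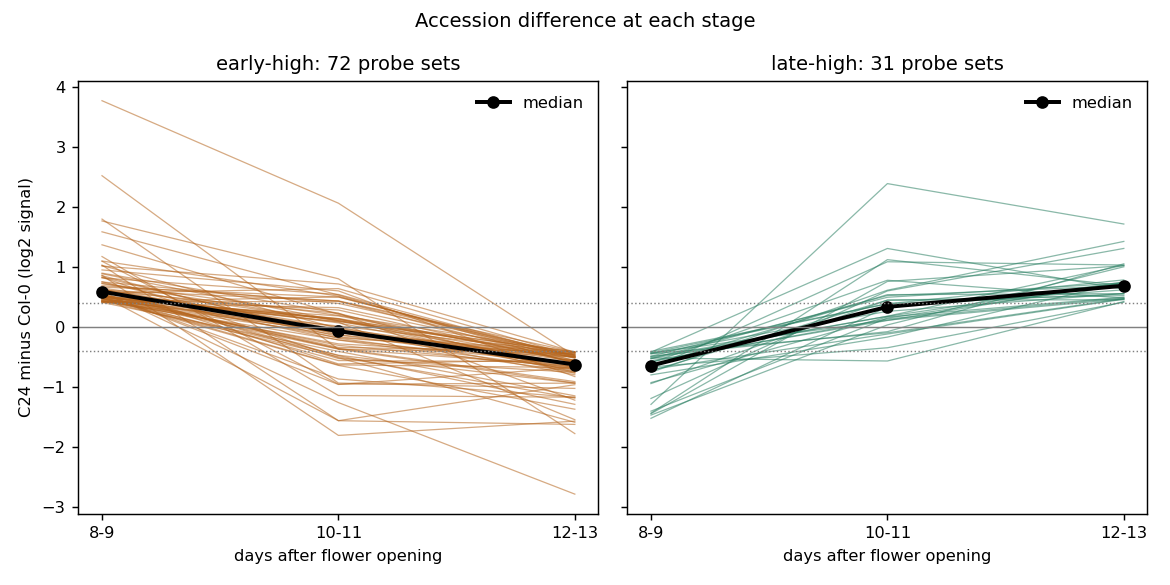
C24 minus Col-0 on the log2 scale (vertical axis) at 8-9, 10-11 and 12-13 d (horizontal axis) for the early-high (left) and late-high members (right). Each thin line is 1 probe set and the marked line is the median, which was 0.59, -0.07 and -0.63 in early-high and -0.64, 0.33 and 0.68 in late-high members; the first and last stages were used to choose the members.

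Among early-high members with a gene name, AT2G43535, of the defensin-like trypsin inhibitor family, had the largest reversal. At 8-9 d its signal was 8.52, 8.98 and 8.36 in C24, against 6.96, 6.83 and 6.79 in Col-0. At 10-11 d it was 9.64, 8.78 and 9.55 in C24, against 8.76, 8.18 and 8.63 in Col-0. At 12-13 d it was 8.40, 8.49 and 8.53 in C24, against 10.38, 10.02 and 10.35 in Col-0. C24 was above Col-0 without overlap at the first 2 stages and below it without overlap at the last. The rule favours such gaps at the first and last stage, and 60 of 72 early-high and 28 of 31 late-high members had them at both. For AT2G43535 the mean at 12-13 d minus that at 8-9 d was -0.15 in C24 and 3.39 in Col-0. The difference at 10-11 d, which the rule did not use, was 0.80 (SE 0.19, limma adjusted p = 0.00429).

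CYP78A9, a cytochrome P450 known for promoting seed and fruit growth, had a steep course in both accessions. It had 5.44, 5.48 and 5.61 in C24 at 8-9 d, against 4.54, 4.84 and 4.59 in Col-0. At 10-11 d the arrays read 8.68, 8.96 and 9.05 in C24, against 10.77, 10.27 and 11.07 in Col-0. At 12-13 d they read 11.13, 11.06 and 11.15 in C24, against 12.75, 12.65 and 12.64 in Col-0. The groups overlapped at no stage, and the sign had turned by 10-11 d, where the difference was -1.81 (SE 0.14, limma adjusted p = 7.34e-09). The mean of both accessions rose by 6.81 between 8-9 and 12-13 d (SE 0.10, limma adjusted p = 3.02e-22).

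ATL8, a RING-H2 finger protein of a ubiquitin ligase family, differed in the direction of its stage change. At 8-9 d it had 8.52, 8.91 and 8.34 in C24, against 7.92, 7.63 and 7.76 in Col-0. In the middle stage it had 9.34, 9.41 and 9.28 in C24, against 9.82, 9.88 and 9.87 in Col-0. By 12-13 d it had 8.23, 8.22 and 8.24 in C24, against 9.83, 9.82 and 9.81 in Col-0. Both accessions were higher at 10-11 d than at 8-9 d, and at 12-13 d C24 lay below its first level and Col-0 near its middle one. The mean at 12-13 d minus that at 8-9 d was -0.36 in C24 and 2.05 in Col-0. The difference at 10-11 d was -0.51 (SE 0.11, limma adjusted p = 0.00183), on the side of the last stage.

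EXPA9, an expansin that loosens cell walls, had a low signal, with a stage difference between both ends of -0.08 in C24 and 1.82 in Col-0. It had 4.72, 4.71 and 4.96 in C24 at 8-9 d, against 4.21, 4.18 and 4.18 in Col-0. In seeds of 12-13 d it had 4.92, 4.49 and 4.76 in C24, against 6.21, 5.78 and 6.04 in Col-0. The 10-11 d difference was -0.48 (SE 0.14, limma adjusted p = 0.0211), and this call was lost without C24 replicate 2 or 3 or Col-0 replicate 1 or 3 of that stage (adjusted p 0.059 to 0.131).

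Other early-high members rose in the mean of both accessions. AT3G22620, of the lipid transfer protein superfamily, had 6.45, 6.72 and 6.57 in C24 at 8-9 d, against 5.84, 5.24 and 6.01 in Col-0. It had 10.93, 10.81 and 10.93 in C24 at 10-11 d, against 10.74, 10.78 and 10.84 in Col-0, where the groups overlapped and the difference was 0.10 (limma adjusted p = 0.664). It then had 9.49, 9.51 and 9.53 in C24 at 12-13 d, against 10.04, 10.00 and 9.89 in Col-0. The mean of both accessions at 10-11 d exceeded the mean of both ends by 2.90 (SE 0.08, limma adjusted p = 1.22e-16), which made it the early-high gene with the highest such value among those with 1 gene.

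AT5G12420, of the wax ester synthase-like acyltransferase family, and AT4G16640, of the matrix metalloproteinase family, also rose. The mean of accessions at 12-13 d minus that at 8-9 d was 5.06 (SE 0.08) for AT5G12420 and 3.39 (SE 0.09) for AT4G16640, with limma adjusted p of 7.64e-22 and 6.73e-18. AT4G20460, of a sugar nucleotide epimerase family, rose by 2.24 (SE 0.13, limma adjusted p = 1.33e-12). Its difference at 10-11 d, 0.51 (SE 0.18), missed the threshold with limma adjusted p = 0.0567. It was called in a fit of only the 6 arrays of that stage (limma adjusted p = 0.0148). AT1G62510, of the lipid transfer protein superfamily, had 8.07, 8.16 and 7.74 in C24 at 10-11 d, against 6.92, 7.61 and 7.64 in Col-0. The difference of 0.60 (SE 0.19, limma adjusted p = 0.0297) lost its call without C24 replicate 1 or 2 or Col-0 replicate 1 of that stage (adjusted p 0.0893 to 0.221).

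A smaller number of early-high members fell with age. AT1G49840, of a family of unknown function, had 9.70, 9.75 and 9.76 in C24 at 8-9 d, against 9.36, 9.22 and 9.42 in Col-0. It had 6.26, 6.12 and 5.89 in C24 at 12-13 d, against 7.44, 6.92 and 7.35 in Col-0. Its mean over accessions fell by 2.87 (SE 0.09, limma adjusted p = 4.68e-17), with -3.65 in C24 and -2.09 in Col-0. AT1G09310, also of unknown function, fell by 3.10 (SE 0.21, limma adjusted p = 2.34e-11), and its groups overlapped at 8-9 d. AT5G07340, of the calnexin family of protein folding chaperones, fell by 0.49 in the mean of accessions (SE 0.09, limma adjusted p = 4.32e-05), with a change of -1.21 in C24 and 0.24 in Col-0.

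AT2G28720, a histone H2B, had a mean change of -0.01 in the first step (SE 0.08, limma adjusted p = 0.957) and rose in the second by 1.04 (SE 0.08, limma adjusted p = 2.26e-09). It had 5.52, 5.63 and 5.51 in C24 at 8-9 d, against 5.12, 5.01 and 5.13 in Col-0. At 12-13 d it had 5.90, 5.85 and 5.90 in C24, against 7.18, 6.63 and 6.65 in Col-0. C24 minus Col-0 at 10-11 d was -0.47 (SE 0.12, limma adjusted p = 0.00668).

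**Figure D2:**
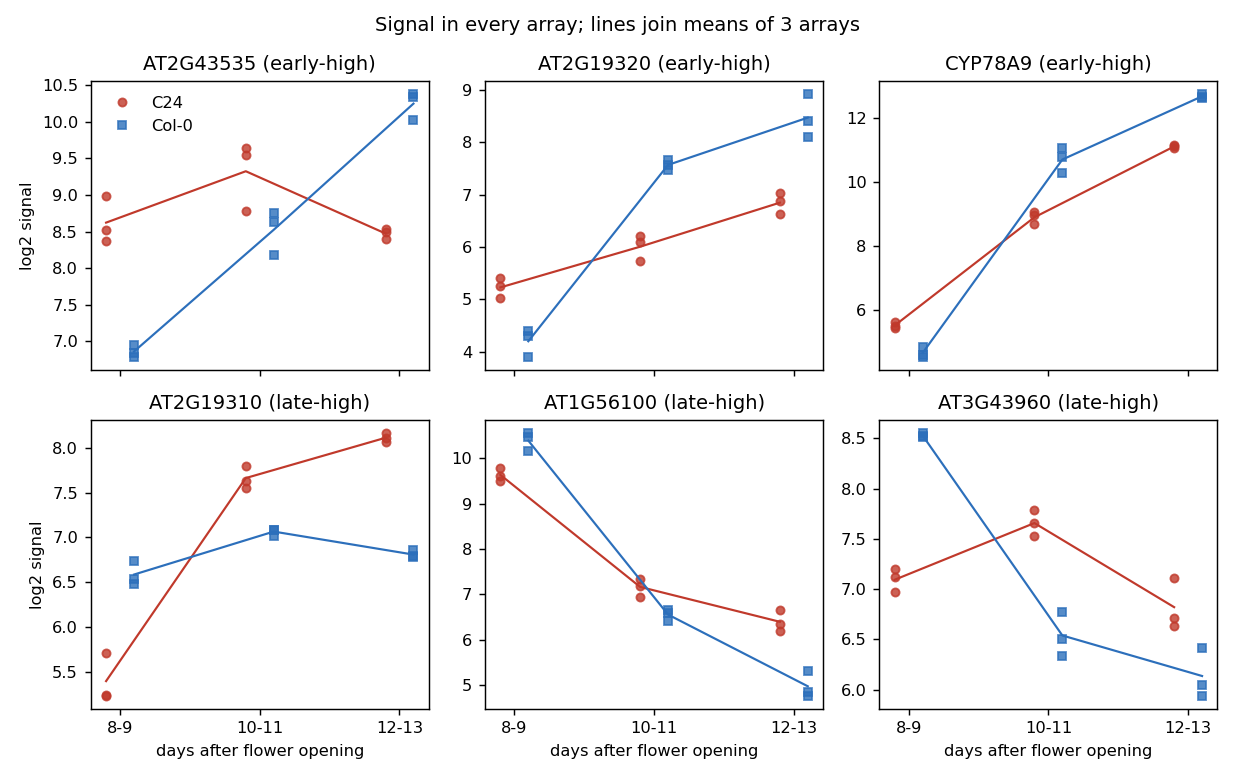
Log2 RMA signal (vertical axis) at the 3 stages (horizontal axis) of 3 early-high (AT2G43535, AT2G19320, CYP78A9) and 3 late-high genes (AT2G19310, AT1G56100, AT3G43960). Points are single arrays of C24 and Col-0 and lines join the means of 3 arrays. The lines of the accessions cross between the first and the last stage in every panel because the rule requires it of all members.

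In the late-high direction AT2G19310, of the HSP20-like small heat shock protein family, had the largest reversal among genes with a name. Its signal at 8-9 d was 5.71, 5.24 and 5.23 in C24, against 6.73, 6.48 and 6.54 in Col-0. At 10-11 d it was 7.55, 7.80 and 7.63 in C24, against 7.09, 7.09 and 7.02 in Col-0. By 12-13 d it was 8.06, 8.11 and 8.16 in C24, against 6.78, 6.79 and 6.85 in Col-0. From the first to the last stage the means differed by 2.72 in C24 and 0.22 in Col-0, and C24 was above Col-0 at 10-11 d by 0.60 (SE 0.11, limma adjusted p = 0.00041).

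The locus next to it on chromosome 2 in the TAIR10.1 gene order, AT2G19320, was an early-high member, and they were the only adjacent pair among the members with a locus. AT2G19320 had 5.41, 5.25 and 5.03 in C24 at 8-9 d, against 4.40, 3.91 and 4.30 in Col-0. In the middle stage it had 5.73, 6.20 and 6.09 in C24, against 7.66, 7.48 and 7.57 in Col-0. In seeds of 12-13 d it had 6.62, 7.04 and 6.88 in C24, against 8.40, 8.10 and 8.92 in Col-0. Thus these neighbours reversed in opposite directions, and at 10-11 d AT2G19320 was lower in C24 by 1.56 (difference -1.56, SE 0.17, limma adjusted p = 1.06e-06). The 5 other measured loci around them had differences between -0.30 and 0.00 at 8-9 d and between -0.32 and 0.21 at 12-13 d.

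AT1G56100 and AT2G01610 both belong to the superfamily of pectin methylesterase and invertase inhibitors, and both fell with age. AT1G56100 had 9.51, 9.61 and 9.78 in C24 at 8-9 d, against 10.55, 10.46 and 10.15 in Col-0. It had 7.35, 6.95 and 7.19 in C24 at 10-11 d, against 6.41, 6.65 and 6.60 in Col-0. It had 6.65, 6.19 and 6.34 in C24 at 12-13 d, against 4.84, 4.76 and 5.31 in Col-0. The groups overlapped at no stage, the stage difference between both ends was -3.24 in C24 and -5.42 in Col-0, and the accession difference at 10-11 d was 0.61 (SE 0.15, limma adjusted p = 0.005).

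AT2G01610 had 6.60, 6.58 and 6.74 in C24 at 8-9 d, against 8.17, 8.21 and 8.11 in Col-0. At 12-13 d it had 6.05, 6.18 and 6.19 in C24, against 5.32, 5.47 and 5.77 in Col-0. The difference at 10-11 d was 0.33 (SE 0.11, limma adjusted p = 0.0411), and leaving out any array of that stage other than Col-0 replicate 2 ended the call (adjusted p 0.069 to 0.229). The IQ calmodulin-binding family gene AT3G52870 had a like course, with 6.77, 6.83 and 6.65 in C24 at 8-9 d, against 7.80, 8.15 and 8.50 in Col-0, and a 10-11 d difference of 0.15 (limma adjusted p = 0.498).

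AT3G43960, of the papain-type cysteine protease family, had 6.97, 7.12 and 7.20 in C24 at 8-9 d, against 8.55, 8.52 and 8.51 in Col-0. At 10-11 d it had 7.66, 7.79 and 7.53 in C24, against 6.77, 6.51 and 6.33 in Col-0. By 12-13 d it had 6.72, 7.11 and 6.63 in C24, against 6.05, 6.42 and 5.94 in Col-0. Col-0 was highest at the first stage and C24 at the middle one, where the accession difference was 1.12 (SE 0.13, limma adjusted p = 3e-06).

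BAN, the anthocyanidin reductase that makes precursors of seed coat tannin, was the only member found in 10 lists of seed processes and tissues. The lists hold 194 loci, of which 65 were matched to a probe set with 1 gene and are called measured. Members not listed with 1 gene could not be assigned to a list. BAN had 10.92, 10.69 and 11.02 in C24 at 8-9 d, against 11.55, 11.73 and 11.74 in Col-0. In the middle stage it had 8.61, 8.29 and 8.78 in C24, against 8.75, 8.98 and 8.48 in Col-0. In seeds of 12-13 d it had 8.37, 7.97 and 8.05 in C24, against 7.81, 6.95 and 7.41 in Col-0. The accessions overlapped at 10-11 d, with a difference of -0.17 (SE 0.17, limma adjusted p = 0.572), and the mean of accessions fell by 3.51 over the course (SE 0.12, limma adjusted p = 3.08e-16).

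All 6 measured genes of the seed coat list, BAN among them, fell in that mean, against a background of 31.3% of all probe sets called lower. The other 5 did not reverse past the threshold. DFR, an earlier enzyme of the same flavonoid pathway, was -0.68 at 8-9 d, -0.27 at 10-11 d and 0.00 at 12-13 d in C24 minus Col-0. The peroxidase gene AT3G50990 was -2.14, -0.32 and -0.05 at these stages. ARA12, SAP and UGT80B1 lay between -0.23 and 0.04 at 8-9 d and between -0.03 and 0.06 at 12-13 d. SAP, whose use as a seed coat marker was not checked, had a highest group mean of 5.01 and a mean change of -0.33. The lists of storage, oil body and late embryogenesis abundant proteins, maturation regulators, photosynthesis, cell division, endosperm, silique wall and leaf, and reference genes held 0 members among their measured loci. With only 103 of 22746 probe sets being members in all, nothing is read from these counts. The 3 silique wall and leaf markers, signs of carried-over pod tissue, had a summed linear signal of 86.0 to 144 in C24 and 92.0 to 95.8 in Col-0 at 8-9 d, and 78.6 to 93.0 in C24 and 78.9 to 83.2 in Col-0 at 12-13 d. The part of pod tissue in the results was not tested.

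TOPII, a topoisomerase used in DNA replication and chromosome separation, was a late-high member. It had 7.49, 7.79 and 7.98 in C24 at 8-9 d, against 8.14, 8.37 and 8.09 in Col-0. It had 5.42, 4.83 and 5.21 in C24 at 12-13 d, against 4.60, 5.14 and 4.30 in Col-0, where the groups overlapped. The 3 measured cell division genes, AUR1, PRL and AUR2, were between -0.56 and -0.37 in C24 minus Col-0 at 8-9 d and between -0.30 and -0.14 at 12-13 d, so all 3 kept the same sign at both ends.

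Late-high genes that rose were led by AT3G04150, of the germin-like family of cell wall proteins. It had 3.70, 3.83 and 3.84 in C24 at 8-9 d, against 4.05, 4.31 and 4.27 in Col-0, close to the floor of the scale. At 10-11 d it had 8.12, 8.30 and 8.24 in C24, against 6.95, 6.43 and 7.36 in Col-0. At 12-13 d it had 10.45, 10.39 and 10.38 in C24, against 9.79, 9.81 and 9.74 in Col-0. The mean rose by 6.09 (SE 0.10, limma adjusted p = 2.46e-21), and C24 was ahead at 10-11 d by 1.30 (SE 0.15, limma adjusted p = 1.08e-06). AT3G05990, of the leucine-rich repeat family, rose by 1.26 (SE 0.05, limma adjusted p = 5.62e-15) and was higher in C24 at 10-11 d by 0.45 (SE 0.07, limma adjusted p = 0.000169). The sugar transporter family gene AT1G34580 and the heavy-metal-associated domain gene AT5G48290 fell, by 1.85 (SE 0.09) and 1.97 (SE 0.07), with limma adjusted p of 3.85e-14 and 7.93e-16.

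The largest reversal in each direction belonged to a probe set without a listed gene, chosen here after its values were seen. The early-high one had 10.39, 10.68 and 10.70 in C24 at 8-9 d, against 7.04, 6.77 and 6.68 in Col-0. It had 5.25, 5.25 and 5.73 in C24 at 12-13 d, against 5.78, 6.26 and 5.63 in Col-0, where the groups overlapped. The late-high one had 7.04, 6.79 and 6.04 in C24 at 8-9 d, against 7.76, 7.96 and 8.01 in Col-0, and 10.49, 10.32 and 9.73 in C24 at 12-13 d, against 8.30, 8.63 and 8.48 in Col-0. At 10-11 d both were higher in C24, by 2.06 (SE 0.18) for the early-high and 2.38 (SE 0.21) for the late-high probe set, with limma adjusted p of 2.97e-08 and 4.39e-08.

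The accession difference at 10-11 d came from 6 arrays that played no part in choosing the members. Its calls at that stage used a spread estimated from all 18 arrays. Over all probe sets 17.9% were called there, 9.92% higher and 7.99% lower in C24. Of the 72 early-high members 11 were called higher in C24 (15.3%), 19 lower (26.4%) and 42 were not called. Of the 31 late-high members 15 were called higher in C24 (48.4%), 2 lower (6.45%) and 14 were not called. AT5G24490 was the named one of these 2, with -0.35 (SE 0.11, limma adjusted p = 0.0315), a call lost without C24 replicate 1 or 3 or Col-0 replicate 1 or 2 of that stage. The early-high members called higher numbered 5 without C24 replicate 2 and 7 without Col-0 replicate 2 of 10-11 d. The late-high members called lower numbered 1 without C24 replicate 1 or 3 or Col-0 replicate 1 or 2 of 10-11 d, and without Col-0 replicate 1 or 2 of 12-13 d. The C24 arrays lay wholly above the Col-0 arrays in 17 early-high and 16 late-high members and wholly below in 25 and 2, where 35.3% of all probe sets had no overlap, 21.4% above and 13.8% below. The median difference was -0.07 in early-high and 0.33 in late-high members, against 0.05 over all probe sets.

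The sign at 10-11 d was that of the last stage in 40 of 72 early-high members and in 25 of 31 late-high members. It was that of the first stage in the other 32 and 6. The sign of the last stage is negative in early-high and positive in late-high members. Over all probe sets the difference at 10-11 d leaned positive, with a median of 0.05 and quartiles of -0.08 and 0.17. The share of all probe sets with each sign was not counted, so the directions are not compared by these counts. Many differences of members at 10-11 d were small, with 40 early-high and 17 late-high members within 0.4 of zero. Calls on the side of the last stage included AT3G51750 at -0.63 (SE 0.13, limma adjusted p = 0.00101) and AT5G53880 at -0.56 (SE 0.11, limma adjusted p = 0.000705). Calls on the side of the first stage included AT1G68570, of the nitrate and peptide transporter family, at 0.64 (SE 0.20, limma adjusted p = 0.0335), which was lost without C24 replicate 1 or 2 or Col-0 replicate 1 or 3 of 10-11 d (adjusted p up to 0.111).

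**Figure D3:**
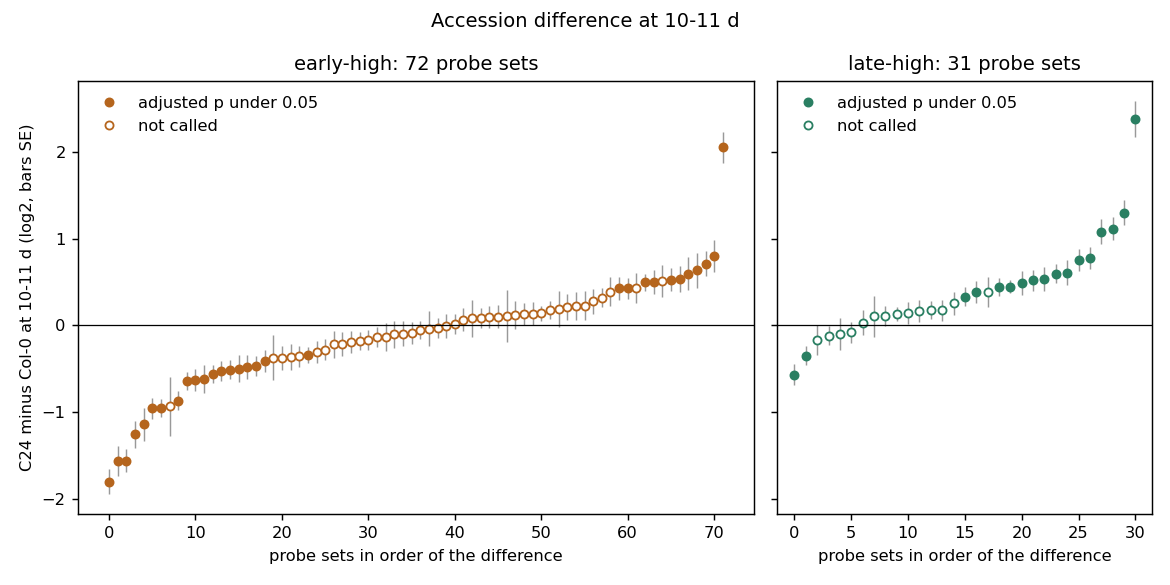
C24 minus Col-0 at 10-11 d on the log2 scale (vertical axis, bars are SE) for the 72 early-high (left) and 31 late-high members (right), in order of the difference along the horizontal axis; filled points were called at a limma adjusted p under 0.05 and open points were not. Early-high members run from -1.81 to 2.06 with 11 called higher and 19 lower, and late-high members from -0.57 to 2.38 with 15 called higher and 2 lower.

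The mean of both accessions was not used by the rule, but at both ends it comes from the same arrays. The rule requires stage changes that differ between the accessions, so a probe set flat in both cannot be a member. A share with a called change above that of all probe sets is therefore partly fixed in advance. Between 8-9 and 12-13 d the mean rose in 51 early-high members, fell in 12 and was not called in 9, with a median of 1.21. In late-high members it rose in 12, fell in 18 and was not called in 1, with a median of -0.35. Over all probe sets 33.1% were called higher and 31.3% lower, with a median of 0.04. Arrays were also scaled to 11 reference genes, of which 4 were called lower and 0 higher in this mean change before scaling. The scaling moved all such changes by 0.16. On this scale 53.7% of all probe sets were called higher and 23.8% lower. Of then 104 early-high members 81 were higher and 14 lower, against 9 higher and 11 lower of then 23 late-high members.

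The course can also be read in its steps. Between 8-9 and 10-11 d the mean rose in 52 early-high members and fell in 8, and rose in 9 late-high members and fell in 19, against a background of 23.9% called higher and 26.6% lower. On the scale of the reference genes this background became 42% higher and 19.4% lower, with 80 of 104 early-high members higher and 9 lower, and 7 of 23 late-high members higher and 13 lower. Between 10-11 and 12-13 d it rose in 30 early-high members and fell in 22, and rose in 12 late-high members and fell in 11, against a background of 17% higher and 19% lower, or 20.9% and 16% on that scale. Leaving out C24 replicate 2 of 8-9 d raised the early-high members called lower in the first step to 14.

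The 10-11 d level, as the mean of accessions, was set against the average of 8-9 and 12-13 d, so that a steep first step followed by a flat one counts as above without a peak in the middle. It was above that average in 47 of 72 early-high members, below it in 5 and not called in 20, with a median of 0.38. In late-high members it was above in 5 of 31, below in 18 and not called in 8, with a median of -0.24. The early-high members below were 12 without C24 replicate 2, 9 without C24 replicate 1, 9 without Col-0 replicate 2 and 8 without Col-0 replicate 1 of 8-9 d. The background was 13.3% above and 14.2% below, with a median of -0.01. Over all probe sets, those that rose over the course were more often above than below this average. A mean signal of 5 or more was found in 95.8% of early-high and 100% of late-high members, against 63.3% of all probe sets. At that signal level the background was 20.8% above and 19.2% below. The members are also set beside probe sets called in the same direction over the course, with size of change and signal level not matched. Among those that rose, 38 of 51 early-high members (74.5%) and 4 of 12 late-high members (33.3%) were above, against 24.9% of all probe sets that rose. Below were 2 early-high (3.92%) and 2 late-high members (16.7%), against 6.64% of all probe sets that rose. Among those that fell, 15 of 18 late-high members (83.3%) and 1 of 12 early-high members (8.33%) were below, against 32.9% of all that fell, and 1 late-high and 7 early-high members were above, against 9.7%. Scaled to reference genes, 16.6% of all probe sets were above and 10.3% below, with 63 of 104 early-high members above and 9 below, and 3 of 23 late-high members above and 11 below.

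**Figure D4:**
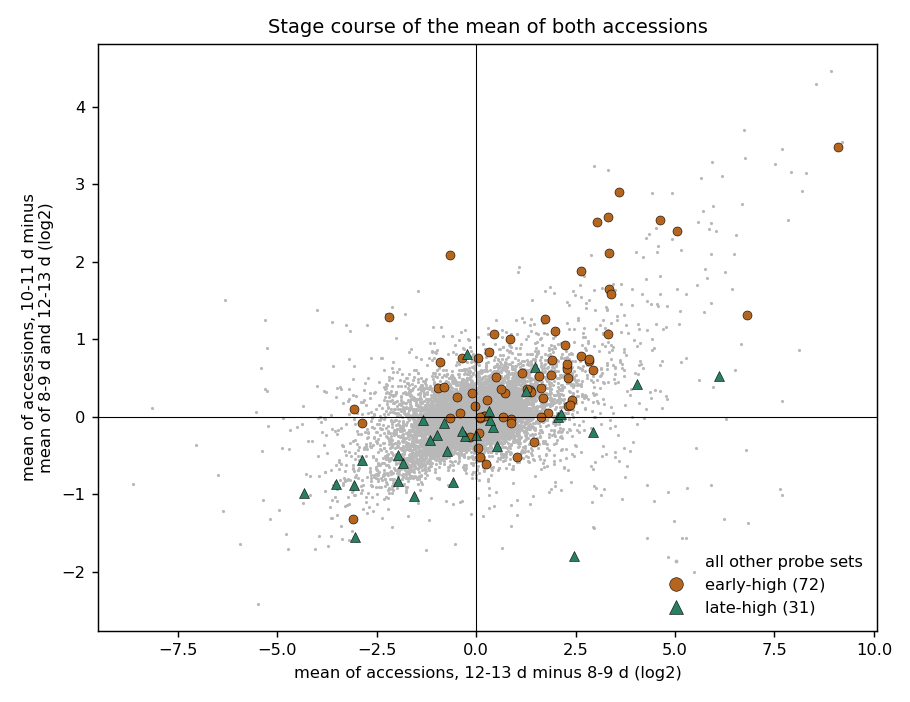
Mean of both accessions at 12-13 d minus 8-9 d (horizontal axis, log2) and at 10-11 d minus the mean of both ends (vertical axis, log2), with early-high, late-high and all other probe sets as points. Early-high members lie mostly to the upper right, with medians of 1.21 and 0.38, and late-high members are spread to lower values, with medians of -0.35 and -0.24.

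Within the accessions, 40 early-high members had a higher mean at 12-13 than at 8-9 d in both, 9 a lower mean in both, and 23 were lower in C24 and higher in Col-0. Of the late-high members 8 were higher in both, 13 lower in both, and 10 higher in C24 and lower in Col-0. Opposite changes with no overlap between the arrays of both ends in either accession were found in 13 early-high and 8 late-high members, where 0.923% of all probe sets had them. The rule favours such probe sets, so nothing is read from this count.

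Some arrays were often at the edge of their group among the members. Col-0 replicate 2 was the lowest array of its group in 40 of 72 early-high members at 8-9 d (55.6%, against 32.7% of all probe sets), in 37 at 10-11 d (51.4%, against 31.8%) and in 44 at 12-13 d (61.1%, against 31.3%). In early-high members the Col-0 array with this number was thus often lowest at the stage the rule did not use, too. Other arrays stood out as well. C24 replicate 3 of 8-9 d was lowest in 37 early-high members (51.4%, against 34.7%). Col-0 replicate 1 of 12-13 d was highest in 42 (58.3%, against 31.2%). In late-high members Col-0 replicate 2 of 10-11 d was instead highest in 17 of 31 (54.8%, against 34.6%). When both arrays numbered 2 at 8-9 d were left out, an alternative chosen after seeing the data, 68 probe sets were early-high, 54 of them shared, and 35 were late-high, 27 of them shared. The threshold itself passes through a dense range. Just inside it lay AT5G12420, with 0.41 at 8-9 d and -0.51 at 12-13 d, and AT3G04150, with -0.42 and 0.62. Just outside lay AT4G27654, with 0.47 and -0.398, and AT4G23820, with -0.58 and 0.37.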

How the data were processed

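Transcript levels of developing seeds were measured on 18 one-colour Affymetrix arrays. Per the submitters' processing notes, the authors computed the deposited log2 signals with RMA. Its version is not stated in the labels or file headers used. RMA compresses differences near the floor and hides shifts shared by all transcripts. Arrays have no read depth, so their number limits the precision.

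Accession and stage came from the sample titles. After 64 control probe sets were left out, 22746 probe sets were fitted with 6 group means in limma 3.58.1 under R 4.3.3 (functions lmFit, then eBayes; 12 degrees of freedom from residuals and 8.331 from the prior). P-values were adjusted by the Benjamini-Hochberg method over all of them, and called means an adjusted p under 0.05. The code was tested on simulated data.

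Probe sets were named through the platform's gene table, in which 13513 have 1 gene, and RefSeq TAIR10.1 for gene order. Classes built from gene synonyms held at most 1 member each and were not used. The members and lists were chosen with earlier results of these data known. Named genes are, per direction and among members with 1 gene, the 10 largest reversals, the 3 highest and 3 lowest called at 10-11 d, the 3 highest and 3 lowest in the mean stage change and in the middle against both ends, those nearest the threshold, list members and adjacent loci. Alternatives were normalization, scaling to 11 reference genes, a filter at 5, rule thresholds of 0.3 and 0.6, the prior, the arrays fitted, a call at 0.01, a replicate block and each array left out.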

Additional observations from a re-analysis of the deposited data

Results flagged for a closer look

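In 8 members with 1 gene, every array of the last stage lay on one side of every array of the first stage in C24 and on the other side in Col-0. The rule that chose the members favours this, and the difference between the accessions in these changes was not tested. Some of these genes were chosen after their values were seen. ATL8 had a change of -0.36 in C24 and 2.05 in Col-0 from 8-9 to 12-13 d on the log2 scale. The alpha-amylase gene AMY1 had -0.80 in C24 and 0.60 in Col-0, and AT5G61820 had -0.29 in C24 and 0.72 in Col-0. AT3G51750 had -0.60 in C24 and 0.57 in Col-0, AT1G31550, of the GDSL lipase family, had -0.49 in C24 and 0.61 in Col-0, and AT4G02630 had -0.43 in C24 and 0.52 in Col-0. Among late-high members, AT4G35070 had 0.44 in C24 and -0.98 in Col-0, and AT4G26770, of the CDP-diacylglycerol synthase family, had 0.49 in C24 and -0.51 in Col-0.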

How the results depend on the processing

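No value at 10-11 d of a named gene called there turned sign under the alternatives run; of those not called, AT1G09310 ran from -0.184 to 0.494 and AT4G16640 from -0.00367 to 0.105 with 1 array left out. The balance of calls over all probe sets turned in several comparisons, given here as higher against lower. For C24 minus Col-0 at 10-11 d it became 1981 against 2017 after a further quantile normalization. Scaling to reference genes turned the mean change from 8-9 to 10-11 d (9560 against 4416). It also turned that from 10-11 to 12-13 d (4758 against 3635) and the middle set against both ends (3783 against 2335). The filter at 5 turned the whole course (5123 against 6132) and the middle set against both ends (3003 against 2759). In the second step late-high members were 22 higher and 31 lower of 80 at a threshold of 0.3. Membership rests on the threshold, with 147 early-high and 80 late-high probe sets at 0.3 and 19 and 10 at 0.6; scaled to the reference genes it was 104 and 23, and 70 and 32 after a further quantile normalization. Leaving out 1 array gave 68 to 81 early-high and 31 to 36 late-high members. For C24 minus Col-0 at 10-11 d, a call at 0.01 left 1337 higher and 1181 lower probe sets in all, 5 early-high members higher and 1 late-high member lower. Late-high members called lower were 0 when scaled, 9 of 80 at a threshold of 0.3 and 0 of 10 at 0.6. With 1 array left out, 1599 to 2374 probe sets were higher and 1337 to 1884 lower, 5 (without C24 replicate 2 of 10-11 d) to 15 early-high members higher and 16 to 23 lower, and 12 to 17 late-high members higher and 1 to 3 lower. Fitted on only the 6 arrays of 10-11 d, 2330 probe sets were higher and 1893 lower. In that fit 16 early-high members were higher and 21 lower, and 14 late-high members higher and 2 lower.

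Scaling raised probe sets higher in the mean change to 12220 over the whole course and 9560 over the first step. The filter on low signal left 4211 of 14404 probe sets lower in the second step and 3003 higher at 10-11 d than the average of both ends. At a threshold of 0.6, 0 of 19 early-high members were lower in the first step, 0 of 19 below that average and 1 of 10 late-high members above it. Without both arrays numbered 2 at 8-9 d, chosen after seeing the data, 12 of 68 early-high members were lower in the first step and 12 of 68 below that average; the cause was not tested. With 1 array left out, early-high members numbered 46 to 58 higher and 11 to 16 lower over the course, 48 to 59 and 7 to 14 in the first step, 25 to 36 and 20 to 29 in the second, and 44 to 52 above and 4 to 12 below the average of both ends. Late-high members numbered 11 to 15 higher and 17 to 23 lower over the course, 7 to 12 and 17 to 24 in the first step, 10 to 15 and 9 to 13 in the second, and 4 to 7 above and 15 to 20 below that average.

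Pairing of pools by replicate number was not assumed. Deviations of same-numbered arrays correlated with r of -0.156 to 0.242, and those of different-numbered arrays with r of -0.255 to 0.192. Such weak correlations over all probe sets cannot exclude a pairing. With a replicate block, 12 early-high members were higher and 19 lower at 10-11 d, and 14 late-high members higher and 2 lower; AT5G12420 was then called (limma adjusted p = 0.0492). The calls of AT1G62510, AT1G68570 and AT2G01610 were lost with an intensity trend and robust prior (limma adjusted p of 0.0593, 0.0531 and 0.0534).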
